A study of Mus musculus with 6 samples.

Results

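The interferon regulatory factors (IRFs) are transcription factors that switch on interferon genes and interferon-stimulated genes, and their cofactors include the IRF2-binding proteins. The transcripts of 9 such genes, namely Irf1, Irf2, Irf5, Irf7, Irf8, Irf9, Irf2bp1, Irf2bp2 and Irf2bpl, were examined in 4T1 cells, a mouse mammary gland epithelial cancer line used as a model of triple-negative breast cancer. They were taken by symbol from a table with 22116 rows that carry a gene name, which held all 9, so that the set covers 6 IRFs and 3 IRF2-binding proteins and not the whole IRF family. Cells received the vehicle DMSO or 10 µM P3FI-90, a compound that the study uses to inhibit the histone demethylase KDM3B, and RNA was harvested after 24 h, with 3 libraries per group. All libraries came from a single unmodified cell line. The comparison asks what the inhibitor does to transcripts of innate immune signaling in tumor cells.

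All IRFs share an N-terminal DNA-binding domain that recognizes repeats of GAAA, the core of the interferon-stimulated response element (ISRE). IRF7 is activated by kinases downstream of nucleic acid sensors and amplifies type I interferon production. IRF9 is the DNA-binding subunit of ISGF3, the complex with STAT proteins that forms after type I interferon binds its receptor. IRF1 is induced by interferon gamma and activates antigen presentation genes, whereas IRF2 binds the same sites and often opposes it. IRF5 acts downstream of Toll-like receptors, and IRF8 is best known from myeloid and B cell development, where it acts with PU.1. IRF2BP1 and IRF2BP2 were found as corepressors that bind IRF2, and IRF2BPL is their paralog. In breast cancer cells IRF activity is of interest because it drives chemokines and MHC class I genes that make a tumor visible to T cells.

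Counts on named genes summed to 31327094 to 37395732 per DMSO library and 33202224 to 36238143 per P3FI-90 library, and 12288 genes passed the filter on low counts. The values given are normalized counts, that is, reads brought to a common library size by TMM in edgeR. The labels do not say whether libraries came from separate cultures, so the p-values measure the spread between libraries, which may be technical. Kdm3b itself, whose protein is inhibited and whose gene is intact, had 2851 ± 67.4 normalized counts in DMSO and 3109 ± 55.7 after P3FI-90 (SD, n = 3), with 0.13 as its log2 fold change (SE 0.043). Of 9 epithelial marker genes, 8 passed the filter, and Krt5 was at 0 throughout. All 8 fell after P3FI-90 treatment, against 39.4% of all tested genes. Summed levels of the list in CPM (TMM-scaled read counts relative to library size) were 3440 to 3615 in DMSO and 1765 to 1843 after P3FI-90. Whether this shift plays a part in the values below was not tested. Of 17 leukocyte markers, 6 were at 0 in all libraries, among them Laptm5, Tyrobp, Adgre1 and Siglech, and the summed level of the list was 17.3 to 19.3 CPM in DMSO and 19.4 to 23.4 after P3FI-90. In bulk RNA, fewer cells of a type and less RNA per cell cannot be told apart.

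All 9 genes passed the filter, and after P3FI-90 treatment 6 rose, 2 fell and 1 was not called. A call required an adjusted p (Benjamini-Hochberg) under 0.05 in the quasi-likelihood test of edgeR. Among all genes tested, 79.3% were called, 39.9% as higher and 39.4% as lower, so that a call by itself was common in this experiment. The groups did not overlap for 8 of the 9 genes, against 81.2% of all genes. Among the IRFs, 5 of 6 rose and 0 fell. Among the IRF2-binding proteins, 1 rose and 2 fell. By log2 fold change, the median of the 9 was 0.69, whereas the median gene of the table was at 0.013. With 3 libraries against 3, the smallest two-sided p of an exact permutation test is 0.1, which was the value for each of the 8 called genes and was 0.4 for Irf8.

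**Figure D1:**
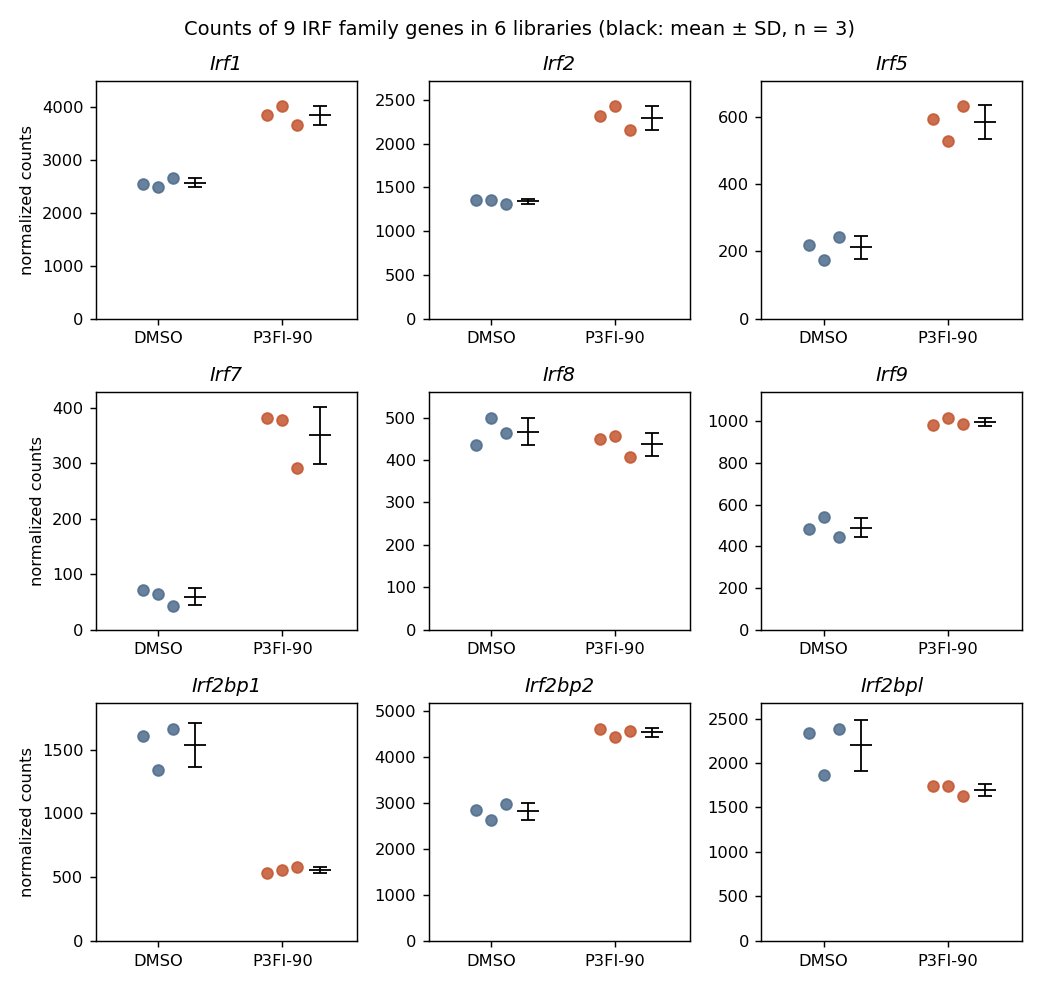
Normalized counts (y axes, each from 0) of the 9 genes in the 3 DMSO and 3 P3FI-90 libraries, with 1 point per library and the mean ± SD in black. The libraries of the groups are apart for every gene except Irf8, and Irf7 shows the lowest DMSO counts, 42.9 to 71.8.

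Irf7, which amplifies interferon production, had the largest rise of the 9. Its normalized counts were 71.8, 63.8 and 42.9 in the DMSO libraries and 382.7, 378.5 and 290.9 after P3FI-90. Every treated library lay far above every DMSO library, although the third library of each group was the lowest of its group. The mean went from 59.5 ± 15.0 to 350.7 ± 51.8 (SD, n = 3), a 5.90-fold rise (log2 fold change 2.56, SE 0.20, adjusted p = 2.73e-08 in edgeR). Ordered by rise, it ranked 362 of all tested genes, and 3.66% had a larger change in either direction. Irf7 is the gene of the set whose DMSO value rests on the fewest reads, 42 to 71 per library, and its coefficient of variation of 25.1% in DMSO was the highest of the 9.

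Irf9, the DNA-binding subunit of ISGF3, had 483.7, 539.6 and 446.0 normalized counts in DMSO and 983.4, 1016.9 and 988.4 after P3FI-90. The treated libraries had a coefficient of variation of 1.81% and were all far above the DMSO libraries. This is a 2.04-fold rise (log2 fold change 1.03, SE 0.082, adjusted p = 3.46e-08 in edgeR). Irf7 and Irf9 are themselves interferon-stimulated genes.

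Irf5, which carries Toll-like receptor signals to inflammatory cytokine genes, had 219.6, 175.8 and 243.9 normalized counts in DMSO and 596.0, 529.6 and 631.8 after P3FI-90. Its groups did not overlap, and the rise was 2.74-fold (log2 fold change 1.45, SE 0.13, adjusted p = 1.07e-07 in edgeR). Of its annotated exon bases, 14.1% lie opposite exons of Tnpo3, whose log2 fold change was −0.57, and the strandedness of the counting is not given in the sources used here. Exons of Phrf1 (log2 fold change 0.20) lie opposite 1.19% of those of Irf7, and exons of Gm17334, which was not among the tested genes, opposite 3.4% of those of Irf1. Irf9 shares 2.28% of its exon bases with Rnf31 (log2 fold change 0.28) on the same strand.

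Irf1, an activator of antigen presentation genes, rose least among the 5 that rose. It had 2550.1, 2495.4 and 2666.8 normalized counts in DMSO and 3843.9, 4012.0 and 3669.6 after P3FI-90, a 1.49-fold rise (log2 fold change 0.58, SE 0.048, adjusted p = 5.14e-08 in edgeR). Irf2, its counterpart at the same DNA sites, had 1353.0, 1352.5 and 1309.4 in DMSO and 2316.8, 2423.2 and 2149.3 after P3FI-90, a 1.72-fold rise (log2 fold change 0.78, SE 0.055, adjusted p = 9.83e-09). Neither gene overlapped between groups. Both changes were moderate in this experiment, since 47.6% of all tested genes changed more than Irf1 and 34.5% more than Irf2.

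Irf8, the lineage factor of myeloid and B cells, was the exception. It had 436.2, 499.8 and 463.3 normalized counts in DMSO and 450.1, 455.9 and 406.5 after P3FI-90, and the ranges overlapped. The log2 fold change was −0.09 with a 95% interval of −0.30 to 0.12 (adjusted p = 0.408 in edgeR), so that a rise as large as that of Irf1 lies outside the interval at this scaling, while a fall of up to 0.30 lies inside it. Scaling by total counts turned its sign, to 0.12 (adjusted p = 0.263). Spi1, which encodes its partner PU.1, had 0 counts in all DMSO libraries and 6, 6 and 12 after P3FI-90, and stayed below the filter. Irf8 reads were thus counted in libraries in which 6 of the 17 leukocyte markers, among them Adgre1 and Tyrobp, were at 0. Other markers had reads. Cd68 had 344, 360 and 358 reads in DMSO and 403, 383 and 275 after P3FI-90. Ptprc had 23, 0 and 3 reads in DMSO and 26, 6 and 10 after P3FI-90, and neither gene was called. Of the 5 leukocyte markers that passed the filter, 3 rose, against 39.9% of all tested genes. The log2 fold changes were 1.56 for Csf1r, 2.48 for Flt3 and 0.43 for Cd74. Flt3 had 8, 8 and 0 reads in DMSO and 28, 44 and 33 after P3FI-90, and passed the filter only through the treated group. H2-Ab1, with 17, 5 and 5 reads in DMSO and 0, 0 and 3 after P3FI-90, stayed below the filter. The share that rose is therefore not a measure of the whole list.

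**Figure D2:**
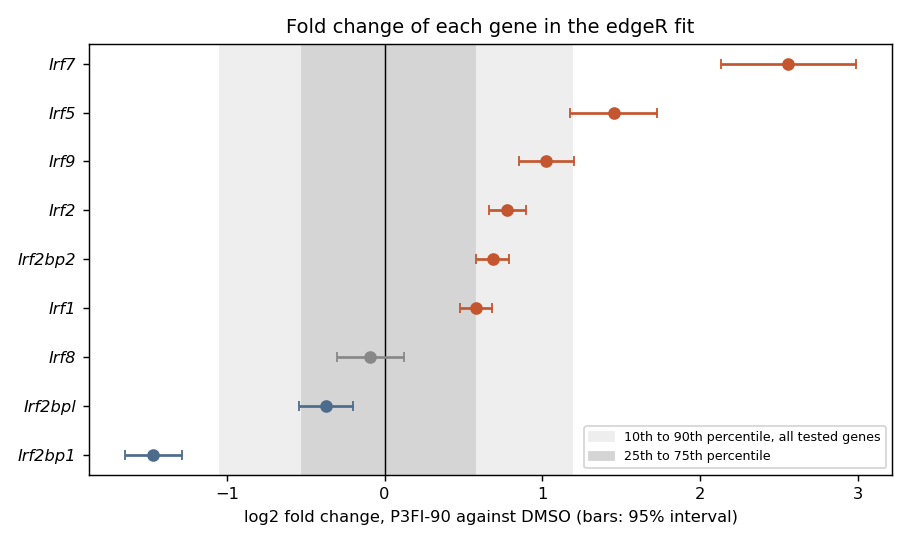
Log2 fold change of each gene from the edgeR fit (x axis, bars the 95% interval), red where called higher, blue where called lower and grey where neither, over the middle ranges of all tested genes (shaded). Irf7, Irf5 and Irf2bp1 lie outside the range from the 10th to the 90th percentile of all genes, −1.04 to 1.19.

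The IRF2-binding proteins moved apart from one another. Irf2bp1 fell from 1611.0, 1344.1 and 1664.6 normalized counts in DMSO to 536.2, 555.7 and 582.9 after P3FI-90. The level in DMSO was 2.76-fold that after treatment (log2 fold change −1.47, SE 0.083, adjusted p = 8.49e-10 in edgeR), and ordered by fall it ranked 521 of all tested genes. Irf2bp2 went the other way, with 2841.6, 2630.3 and 2985.2 in DMSO and 4618.7, 4440.9 and 4559.1 after P3FI-90, a 1.61-fold rise (log2 fold change 0.69, SE 0.048, adjusted p = 8.61e-09). Of its annotated exon bases, 20.5% lie opposite the antisense gene Gm26759, which was not among the tested genes.

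Irf2bpl had 2340.7, 1866.8 and 2385.1 normalized counts in DMSO and 1740.4, 1739.9 and 1624.2 after P3FI-90. Its groups came close, with the second DMSO library only slightly above the highest treated ones. The log2 fold change was −0.37 (SE 0.079, adjusted p = 6.14e-04 in edgeR). The call was lost when libraries were scaled by total counts alone (log2 fold change −0.16, adjusted p = 0.0802). The second DMSO library was the lowest of its group for all 3 IRF2-binding proteins, Irf1 and Irf5, and the highest for Irf8 and Irf9. Without it, the log2 fold changes were −1.56 for Irf2bp1, 0.63 for Irf2bp2 and −0.48 for Irf2bpl, and the 3 calls were the same.

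The ratio of a pair of genes within a library does not depend on how libraries are scaled, and 6 such ratios were compared, 5 of which are given here. Reads of Irf2bp2 per read of Irf2bp1 were 1.76, 1.96 and 1.79 in the DMSO libraries and 8.61, 7.99 and 7.82 after P3FI-90. This was the largest shift, by 2.15 on the log2 scale (SE 0.063). The ratio of Irf2bpl to Irf2bp1 rose by 1.10 (SE 0.069), and that of Irf2bpl to Irf2bp2 fell by 1.05 on the log2 scale (SE 0.077). Reads of Irf1 per read of Irf2 were 1.88, 1.85 and 2.04 in DMSO and 1.66, 1.66 and 1.71 after P3FI-90, a difference of −0.20 on the log2 scale (SE 0.046) between the activator and the antagonist transcript. For ISGF3, the log2 ratio of Irf9 to Stat2 differed by 0.12 (SE 0.092) with overlapping libraries (exact permutation test, two-sided, p = 0.3). For the other 4 ratios given the exact p was 0.1, the smallest that the design allows, and 0.12 after Benjamini-Hochberg adjustment over the 6.

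**Figure D3:**
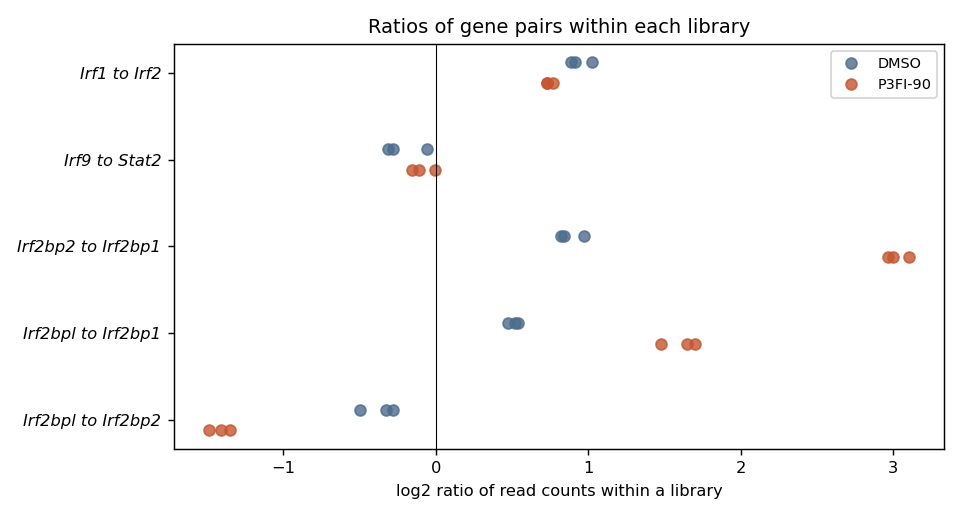
Log2 ratio of read counts of 5 gene pairs within each library (x axis), with 1 point per library, DMSO in blue and P3FI-90 in red. The ratios of the IRF2-binding proteins are widely separated, from 0.88 to 3.02 in the mean for Irf2bp2 to Irf2bp1, whereas Irf9 to Stat2 overlaps.

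Levels of different genes were compared per kilobase of the longest principal transcript. In DMSO the order was Irf1 (1203 ± 41.0 normalized counts per kilobase, SD, n = 3), Irf2bp1 (563 ± 62.8), Irf2bp2 (555 ± 35.1), Irf2bpl (536 ± 70.1), Irf2 (536 ± 10.0), Irf9 (199 ± 19.1), Irf8 (164 ± 11.2), Irf5 (95.1 ± 15.4) and Irf7 (31.1 ± 7.81). The 4 genes from Irf2bp1 to Irf2 did not differ from their neighbours beyond the spread of the libraries, and the other neighbours did not overlap. After P3FI-90 the order was Irf1 (1798 ± 80.1), Irf2 (920 ± 55.3), Irf2bp2 (894 ± 17.8), Irf2bpl (415 ± 16.3), Irf9 (405 ± 7.35), Irf5 (261 ± 23.2), Irf2bp1 (204 ± 8.58), Irf7 (183 ± 27.0) and Irf8 (154 ± 9.47). Overlaps were then found between Irf2 and Irf2bp2, between Irf2bpl and Irf9, between Irf2bp1 and Irf7 and between Irf7 and Irf8. Irf7 thus moved from well below Irf8 to a level that overlapped it. The lengths decide part of this order. With the union of all exons in place of the principal transcript, Irf2 lay well below the 3 IRF2-binding proteins in DMSO, at 181 ± 3.38 normalized counts per kilobase, and after P3FI-90 Irf7 (92.9 ± 13.7) lay above Irf8 (62.0 ± 3.82) without overlap.

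Irf1 made up 54.0% ± 1.43 of the summed level per kilobase of the 6 IRFs in DMSO and 48.3% ± 0.37 after P3FI-90, again with principal transcripts. The share of Irf7 went from 1.40% ± 0.36 to 4.91% ± 0.56, that of Irf5 from 4.27% ± 0.66 to 7.05% ± 0.90 and that of Irf9 from 8.94% ± 0.92 to 10.9% ± 0.35. The share of Irf8 went down from 7.35% ± 0.52 to 4.13% ± 0.10, and that of Irf2 overlapped between groups, at 24.1% ± 0.63 and 24.7% ± 0.49. The summed level of the 6 was 2228 ± 17.1 normalized counts per kilobase in DMSO and 3721 ± 152 after P3FI-90. Of the 3 IRF2-binding proteins, each made up about the same share in DMSO, 34.0% ± 0.40 for Irf2bp1, 33.6% ± 1.5 for Irf2bp2 and 32.3% ± 1.11 for Irf2bpl. After P3FI-90 these were 13.5% ± 0.67, 59.1% ± 0.75 and 27.4% ± 1.02, although their summed level overlapped between groups, at 1654 ± 167 and 1513 ± 14.9.

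**Figure D4:**
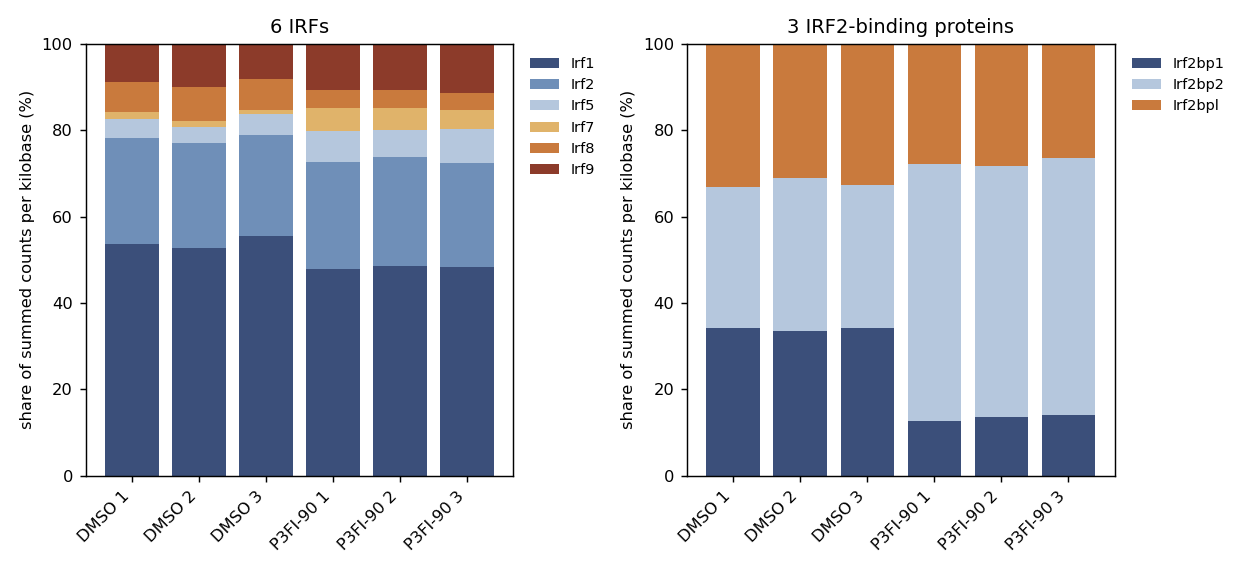
Share (y axis, percent) of each gene in the summed normalized counts per kilobase of the 6 IRFs (left) and of the 3 IRF2-binding proteins (right), with 1 stacked bar per library. Irf2bp2 takes 33.6% of its family in DMSO and 59.1% after P3FI-90, and Irf1 remains the largest share of the IRFs in all 6 libraries.

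Since STAT dimers bind the element TTCNNNGAA and IRFs bind GAAA-NN-GAAA, the promoters of the 9 genes were searched for these letters on both strands, from 250 bases before to 50 bases after the transcript start. All 9 genes were found in the RefSeq promoter table of GRCm38.p6, with 12 starts. TTCNNNGAA was found for Irf1, Irf2, Irf8 and Irf2bp1, against 9.55% of all genes (8.3% of all promoters of this length). GAAA-NN-GAAA was found for Irf2, against 3.99% of all genes (3.44% of all promoters). The matches and their surroundings are shown because these 4 genes include 2 that rose, the one that was not called and the one that fell most. Capitals mark the matched letters, all on the plus strand of GRCm38.p6.
Irf1, chr11:53769899-53769957: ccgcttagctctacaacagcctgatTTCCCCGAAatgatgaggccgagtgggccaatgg
Irf2, chr8:46739495-46739554: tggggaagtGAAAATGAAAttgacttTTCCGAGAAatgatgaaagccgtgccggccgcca
Irf8, chr8:120736162-120736238: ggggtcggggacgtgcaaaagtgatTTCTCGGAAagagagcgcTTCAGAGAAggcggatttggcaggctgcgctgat
Irf2bp1, chr7:19003974-19004032: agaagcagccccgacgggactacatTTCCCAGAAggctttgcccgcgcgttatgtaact
In Irf2 the first match is GAAA-NN-GAAA, 241 bases before the start, and the second is TTCNNNGAA, 224 bases before it. The TTCNNNGAA match of Irf1 begins 90 bases before its start and that of Irf2bp1 59 bases, and Irf8 has 2, beginning 171 and 153 bases before its start. The match was thus present in genes with log2 fold changes from −1.47 to 0.78, and Irf7, Irf5 and Irf9, with the largest rises, held neither set of letters in these windows. A match is a description of the sequence, not of binding, and whether such sites play a part in the changes was not tested.

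The genes that act before and after the IRFs were described by lists. In every list the calls are to be read beside those of all tested genes, 39.9% higher and 39.4% lower. Upstream, the 14 adaptors and kinases that lead to IRF activation were divided, with 6 higher and 6 lower, and their median lay at 0.042 on the log2 scale, close to that of the table. Traf6, Tank and Traf3, ubiquitin ligases and a scaffold around TBK1, rose with log2 fold changes of 1.21, 0.95 and 0.68, and Tbk1 itself with 0.39. Ikbke, the kinase most related to TBK1, fell with −1.12, Irak4 with −1.12, the RNA sensor adaptor Mavs with −0.70 and Myd88 with −0.62. Of the 11 interferon ligands listed, 0 passed the filter and 8 were at 0 in all libraries. Ifnb1, the type I interferon that IRFs induce, was at 0 in every DMSO library and had 8, 15 and 6 reads in the treated ones.

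Among receptors, JAKs and STATs, 5 of 11 rose and 4 fell, against 39.9% and 39.4% of all tested genes. Their median log2 fold change was 0.15. This median was 0.081 without the third DMSO library. Stat2, which encodes an ISGF3 partner, rose with a log2 fold change of 0.91 (SE 0.074), beside 1.03 for Irf9. So did Ifngr2 (0.81) and Ifnlr1 (1.15), which encode chains of the type II and type III interferon receptors. Jak2, Jak1, Ifnar2 and Il10rb fell, with log2 fold changes of −0.51, −0.29, −0.39 and −0.40. Chains of the type I (Ifnar2) and type III (Il10rb) interferon receptors were thus among the lower genes. Ifnar1, the other type I chain, was not called (0.073, adjusted p = 0.144 in edgeR). The call of Jak1 was lost under total counts.

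Of the 8 listed repressors and modifiers of IRFs, 5 rose and 2 fell, against 39.9% and 39.4% of all tested genes. Their median log2 fold change was 0.28. Foxo3, a known repressor of Irf7 transcription, rose with a log2 fold change of 1.34 (SE 0.048), and Eif4ebp1, which restrains Irf7 translation, with 0.30. Rbck1 and Eif4ebp2 fell, with −0.47 and −0.27, and the call of Eif4ebp2 was lost under total counts. Prdm1, a repressor that binds ISRE-like sites, was picked out after its values were seen, with 2, 8 and 0 reads in the DMSO libraries and 31, 59 and 29 in the treated ones. Of the listed partners of IRF8 and IRF5 complexes, 8 of 12 were tested, 4 of which rose, the coactivator genes Crebbp (log2 fold change 1.57) and Ep300 (0.99), Ets1 (0.95) and Rela (2.11), and 2 fell, Jund (−1.09) and Junb (−0.30), the latter not called under total counts. Of the 7 tested partners of the IRF2-binding proteins, 4 rose and 3 fell. Vgll4, a cofactor of TEAD factors that binds IRF2BP2, rose with 0.56 and Tead1 with 0.68, whereas Tead2, Tead3 and Tead4 fell with −1.64, −0.70 and −0.56.

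Downstream, a list of 25 genes with ISRE-type control had 22 higher, 1 lower and 2 neither, with a median log2 fold change of 2.39. This median was 1.30 with at least 10 counts required in every library, where 17 were higher and 1 lower, and 1.55 with limma on log2(CPM + 1). Of the 25 genes, 19 were higher by more than 1 on the log2 scale, against 12.7% of all genes. These 19 include Oas2, Mx1, Mx2, Rsad2, Ifi44 and Zbp1, which had under 10 reads in some or all DMSO libraries. They passed the filter through the treated group, where they are high, so that their part in this share was favoured by the filter. Parp14 rose with 1.10 (SE 0.059) and Rigi, the RNA sensor, with 1.93, while Ifit2 fell with −0.63. Mx1 was at 0 in all DMSO libraries, and the median was the same with it at its lower bound. A list of 25 targets typical of IRF1, of which 23 were tested, had 13 higher, 4 lower and 6 neither. Among all tested genes the shares were 39.9% higher and 39.4% lower, and the median log2 fold change of the list was 0.33. Cxcl10, Nos2, B2m and Gbp3 rose, with log2 fold changes of 4.30, 1.05, 0.49 and 2.64. The immunoproteasome subunit Psmb10 and the peptide transporter Tap2 fell, with −0.73 and −0.54, and so did Casp1 (−1.35) and Socs1 (−0.56), although the call of Casp1 was lost without the first DMSO library and that of Socs1 under total counts. The study names Isg15, Ifit1, Ifi44 and Cxcl10 of these lists for the same cells, and many genes of both lists answer to more than 1 IRF, so that the lists do not separate the factors.

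**Figure D5:**
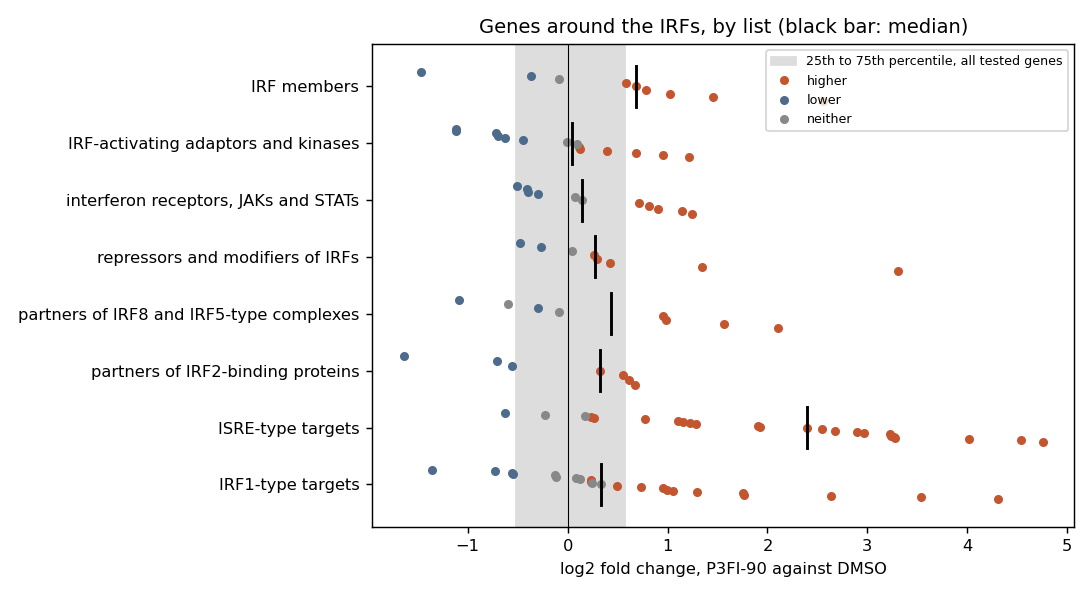
Log2 fold change (x axis) of each tested gene by list (rows), with the median as a black bar and the range from the 25th to the 75th percentile of all genes, −0.52 to 0.57, in grey. The 9 genes themselves spread from −1.47 to 2.56, the adaptors and kinases centre near 0, and the ISRE-type targets lie furthest to the right, with Mx1 left out of the points because it was at 0 in DMSO.

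The genes most like Irf7 and Irf2bp1 were looked for by the root mean square distance between centred log2 CPM profiles over the 6 libraries, among 10571 genes with at least 100 normalized counts on average. Nearest to Irf7 were Sh3gl3 (distance 0.16), S100a7a (0.19) and Nrg1 (0.20), with log2 fold changes of 2.76, 2.42 and 2.68. Nearest to Irf2bp1 were Trp53i11 (0.036), Mettl26 (0.051) and Fzd2 (0.056), with −1.46, −1.45 and −1.41. As the libraries form 2 groups far apart, such a distance takes in the size of the fold change above all, and shared control was not tested.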

How the data were processed

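The 3 DMSO and 3 P3FI-90 libraries (10 µM, 24 h) of the 4T1 line were analysed from the RNA-seq counts per gene that the authors deposited, as whole numbers without normalization. The submitters' processing notes name CASAVA, HISAT2, StringTie and GRCm39. The counting tool, annotation and strandedness are not given in the sources used here. The 285 rows of assembled transcripts (0.483% to 0.556% of counts) were left out. As more genes had a count of 2 than of 1 (311 against 81 in the first DMSO library), both mates of a pair may have been counted.

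In edgeR 4.0.16 (R 4.3.3), low counts were removed by filterByExpr, TMM factors were set, and groups were compared by the quasi-likelihood test, Benjamini-Hochberg adjustment over 12288 genes and a threshold of 0.05. No pairing was used, since equally numbered libraries did not deviate together (correlations −0.021, 0.015 and 0.0049). Replicate libraries were distinct, with a chi-square per gene between them of 5.44 to 8.43. On simulated counts of 12288 genes, of which only 200 were changed, 183 of the 200 were found, and 7.58% of calls were false. In the data 79.3% of all tested genes were called, so the simulation does not give the error rate of this comparison. The depth leaves counting error mainly in Irf7. Ratios were tested with exact permutation tests. Transcript lengths and exon overlaps came from GENCODE M21 (GRCm38) and promoters from RefSeq, matched by identifier or symbol. The 2 builds differ from that of the counts, so only reference coordinates are given.

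The members and lists were chosen with earlier results of these data known. All 9 members are named, and from each list up to 4 higher and 4 lower genes with the smallest p. Further genes are named where they show a limit of a list. Alternatives were other scalings, filters and tests (DESeq2 1.42.0, limma 3.58.1), a replicate block, each library left out and, added after the data were seen, assembled transcripts kept, counts halved and exon union lengths. Protein sequences were not used here, and some genes of the lists are not reported here.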

Additional observations from a re-analysis of the deposited data

How the results depend on the processing

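The log2 fold changes of the 9 genes were recomputed under 17 alternatives, and 151 of 153 values kept their direction and their side of the threshold. Both exceptions arose when libraries were scaled by total counts alone, which raised the median of all genes from 0.013 to 0.23: Irf8 turned from −0.09 to 0.12 (called under neither scaling) and Irf2bpl went to −0.16 and was no longer called, which left 1 member lower. Relative to that median, Irf8 remained below it. Under total counts the list medians became 0.26 for adaptors and kinases, 0.36 for receptors, JAKs and STATs, 0.49 for repressors and modifiers, 0.65 for partners of IRF8 and IRF5, 0.54 for partners of IRF2-binding proteins, 2.61 for ISRE-type and 0.54 for IRF1-type targets. Under upper quartiles they were 0.11 for receptors, 0.24 for repressors, 0.40 for partners of IRF8 and IRF5 and 0.29 for partners of IRF2-binding proteins. With no filter on low counts the 2 partner lists had 0.95 and 0.44. The ISRE-type median was 1.30 with at least 10 counts in every library, 1.55 with limma on log2(CPM + 1), where the IRF1-type median was 0.24, and 2.18 with counts halved.

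When libraries were left out 1 at a time, medians ranged from 2.20 to 2.52 for ISRE-type targets, from 0.26 to 0.47 for IRF1-type targets and from 0.081 to 0.18 for receptors. For partners of IRF8 and IRF5 they ranged from 0.42 to 0.96, with the rise to 0.94 or more without any 1 of the DMSO libraries or the second P3FI-90 library. In the main fit this median lay midway between Jun (−0.085) and Ets1 (0.95), the middle genes of the 8 tested. It therefore moves in a large step when the set of tested genes changes. The filter on low counts was applied anew in each fit, and with no filter the median was 0.95. A median near the value of Ets1 is what 1 more tested gene above Ets1 would give. Spib, below the filter in the main fit, had 0, 6 and 2 reads in DMSO and 16, 5 and 13 after P3FI-90. Which genes of the list passed the filter in each of these fits is not reported here. Irf7 ranged from 2.36 to 2.72 and Irf2bpl from −0.48 to −0.31. The replicate block changed no call of the 9 genes, with a log2 fold change of 2.57 for Irf7 and −0.36 for Irf2bpl. The labels link same-numbered libraries only by their number. The call of Kdm3b as higher was lost under upper quartiles and without the first DMSO, the second P3FI-90 or the third P3FI-90 library. The calls of Jak1, Junb, Eif4ebp2 and Socs1 as lower were lost under total counts, and that of Casp1 without the first DMSO library. Within-library ratios kept their direction in all their alternatives. With exon union lengths, 35 of 36 pairs of the 9 genes kept their order of level in DMSO and 31 after P3FI-90. The motif counts were the same when only the bases before the start were searched. Interferon ligands, which were below the filter, were given as reads and were not recomputed under the alternatives.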
